A study of Saccharomyces cerevisiae with 4 samples.

Results

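The 50 genes described here encode ribosome assembly factors and parts of the RNA polymerase I machinery of the budding yeast Saccharomyces cerevisiae. They were taken from a fixed list of names, matched by systematic name to the 6388 gene probes of an oligonucleotide array, and all 50 had a probe. By role, 16 belong to or act with the small subunit processome, 6 are core proteins of the small nucleolar ribonucleoproteins, 22 act in large subunit assembly and 6 belong to RNA polymerase I or its initiation factor. The array held 3 spots of each probe, and the spots give no sequence of the probe.

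Ribosome production begins in the nucleolus, where RNA polymerase I transcribes the ribosomal DNA into one long precursor RNA. Small nucleolar ribonucleoproteins modify this RNA, the processome folds and cleaves its 5′ part into the small subunit, and a second set of helicases, GTPases and scaffold proteins builds the large subunit and brings it to the nuclear pore. In yeast the genes of these factors are known to be expressed together with growth rate, and many kinds of stress, salt among them, lower their transcripts for a time.

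Each of the strains BF2B and BF2S was set against the strain BF2, and all cells had been exposed to 0.6 mol/L NaCl for 45 min. BF2B lacked BDF1 and BDF2, which encode bromodomain proteins. It carried pYX242, a plasmid, and the construct that the labels name BDF2 L. Per its label, BF2S lacked the same genes and carried BDF2 L and a construct written SIR2 H. BF2 lacked BDF1 alone and carried the plasmids pYX242 and pRS316. All 3 strains are thus labelled as lacking BDF1, which the BDF1 probe did not bear out for BF2S, as given further on. All were salt-treated, so none of the ratios is a response to salt. The labels do not say what L and H stand for or how many clones were used.

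Each comparison rests on 2 slides of the same RNA pair with the dyes exchanged. On slide 1 BF2B was labelled with Cy5 and on slide 2 with Cy3. Since both slides hold 1 pair of samples, they give 1 replicate. Differences between cultures could not be tested, and an SD here measures how far 2 hybridisations lay apart. A gene was tested when at least 1 channel was above background on both slides. It was called when both slides passed 2-fold on the same side. Of the 6388 probes, 4660 were tested on the BF2B slides. On these slides the deleted BDF1 was not above background in either channel, and BDF2 stood at a log2 ratio of 1.61 ± 0.03 in BF2B over BF2. LEU2, the selection marker of pYX242, was called lower in BF2B, although both strains are labelled as carrying that plasmid. On the slides of the strain labelled BF2S, in contrast, the BDF1 probe stood at 1.64 ± 0.28 over BF2 and was called higher, which goes against the labelled deletion, and its BF2S signals of 1580 and 419.5 units were below those of blank spots. SIR2 was called higher there as well, at 1.51 ± 0.18. Its BF2S signals of 1738 and 1320 units were also below those of blank spots. Blank spots were dim on the BF2B slides, with median signals of 29 and 110 units in BF2B and 52 and 70.5 units in BF2.

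Transcripts for ribosome assembly and RNA polymerase I stood close to each other in BF2B and BF2. Of the 50 genes, 47 were tested, and 0 were called, where 2.98% of all tested genes were called, 1.37% higher and 1.61% lower. Their median log2 ratio of BF2B over BF2 was 0.10, or 1.07-fold, and was 0.14 on slide 1 and 0.11 on slide 2. It was 0.16 over the 31 genes left when spots marked -100 in the scanner files were dropped. Such marks fell on 54.6% of gene spots on slide 1 and 0% on slide 2. The genes RPA49, RPA34, PWP2, TSR1, ERB1, HAS1, MAK5, NOG1 and NOG2, described below, were among those left without a ratio. The median over all tested genes was -0.01. The quartiles of the 47 genes were 0.01 and 0.23, and the whole range ran from -0.28 (TSR1) to 0.77 (MAK16). Sign was uneven: 21 of the 47 were above 0 on both slides, where 31.6% of all tested genes were, and 7 were below 0 on both, where 32% of all tested genes were. The remaining 19 lay on opposite sides of 0 on the 2 slides, beside 36.4% of all tested genes.

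**Figure D1:**
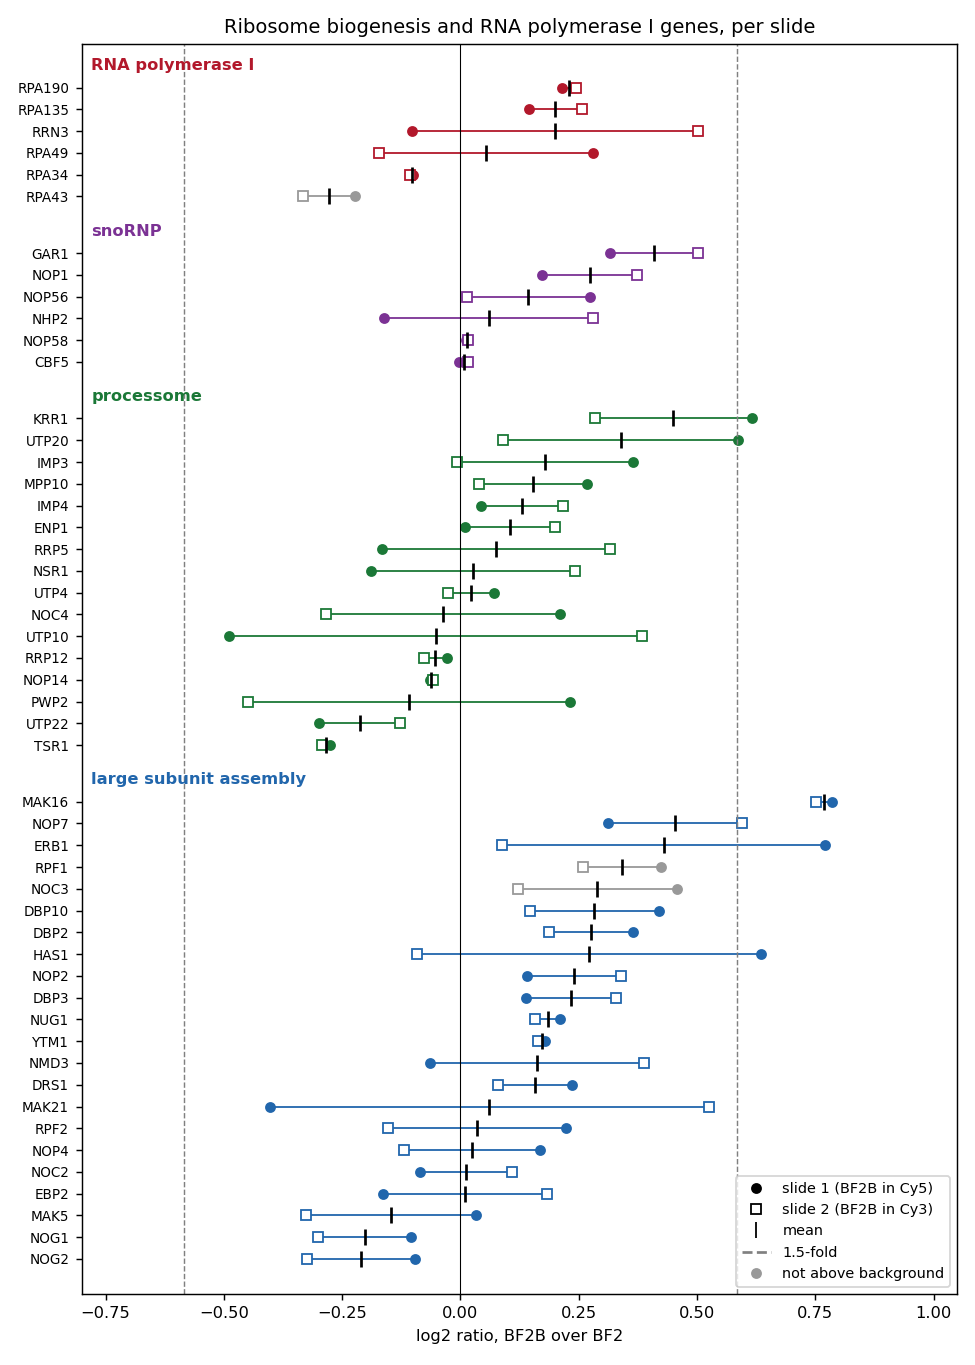
Log2 ratios of BF2B over BF2 (x axis) for the 50 genes, grouped by role, with slide 1 as filled circles, slide 2 as open squares and the mean as a black bar. Grey genes were not above background and dashed lines mark 1.5-fold. MAK16 is the only gene with both slides beyond a dashed line.

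RNA polymerase I is built around its largest subunits, Rpa190 and Rpa135, which form the catalytic cleft. RPA190 had loess-corrected intensities of 1149 and 1343 brightness units in BF2B on slides 1 and 2, against 990.0 and 1134 units in BF2. BF2B was the higher strain on each slide, and the log2 ratio was 0.23 ± 0.02. RPA135 had 932.9 and 955.5 units in BF2B, against 844.3 and 800.0 units in BF2, and stood at 0.20 ± 0.08. For RPA135, BF2 was not above background on slide 1. All 6 spots of RPA190 lay between 0.13 and 0.29 and all 6 of RPA135 between 0.04 and 0.32.

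The other RNA polymerase I genes gave no common direction. RRN3, which encodes the factor that brings the polymerase to the promoter, had 1004 and 1145 units in BF2B, against 1078 and 808.6 units in BF2. Its log2 ratio was -0.10 on slide 1 and 0.50 on slide 2, so the strains changed order. RPA49 and RPA34 encode a pair of subunits that work together. RPA49 had 470.7 and 471.1 units in BF2B, against 388.0 and 530.8 units in BF2, and stood at 0.28 and -0.17 on the 2 slides. RPA34 had 409.4 and 471.5 units in BF2B, against 438.8 and 507.5 units in BF2, and stood at -0.10 and -0.11. The pair therefore differed in its agreement between slides, and both genes were above background in the Cy5 channel alone. RPA43, whose product contacts Rrn3, was not above background in either strain on either slide, so its ratio of -0.28 ± 0.08 has no level behind it. RPA190 and RPA43 are direct neighbours transcribed away from each other, and the measured member of the pair was the one with a ratio above 0. Over the 5 tested genes the median was 0.20, which is the ratio of RRN3, whose slides lay on opposite sides of 0. The median of the 5 was 0.14 on slide 1 and 0.24 on slide 2. Of these genes 2 were above 0 on both slides and 1 was below. With the untested RPA43 included the median was 0.13.

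The small nucleolar ribonucleoproteins, which guide the modification of ribosomal RNA, were all above background in both strains on both slides. GAR1, a core protein of the H/ACA class, had 3559 and 4906 units in BF2B, against 2860 and 3466 units in BF2, which put its log2 ratio at 0.41 ± 0.13. NOP1, the methyltransferase of the box C/D class, had 3069 and 3949 units in BF2B, against 2722 and 3048 units in BF2, and stood at 0.27 ± 0.14. For both genes BF2B was higher on each slide. CBF5, the pseudouridine synthase that works with Gar1, had 6699 and 7785 units in BF2B, against 6712 and 7699 units in BF2, and so stood at 0.01 ± 0.01. NOP58 likewise stood at 0.01, and NOP56 and NHP2 stood at 0.14 ± 0.18 and 0.06 ± 0.31. Partners in 1 particle thus spanned 0.01 to 0.41 in the H/ACA class and 0.01 to 0.27 in the box C/D class. The median of the 6 genes was 0.10, with 4 above 0 on both slides and none below 0 on both.

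The small subunit processome gave a median of 0.02 over 16 tested genes, with 5 above 0 on both slides and 4 below. It was 0.075 over the 7 genes above background in both strains on both slides and 0.14 over the 9 left without marked spots. KRR1, an RNA-binding assembly factor, had 4350 and 4121 units in BF2B, against 2840 and 3387 units in BF2, for a ratio of 0.45 ± 0.23. UTP20, a large scaffold protein, had 1327 and 1471 units in BF2B, against 884.0 and 1382 units in BF2. BF2B was higher for both genes on each slide, but the UTP20 ratio was 0.59 on slide 1 and 0.09 on slide 2. For UTP20, BF2 was not above background on slide 1. The genes of the Mpp10 complex, MPP10, IMP3 and IMP4, lay close together between 0.13 and 0.18. UTP4 and UTP10, which belong to the first complex to bind the precursor, and PWP2 of the second one lay between -0.11 and 0.02, and each of the 3 changed sides between slides. PWP2 had 533.4 and 425.5 units in BF2B, against 454.5 and 581.1 units in BF2, or 0.23 on slide 1 and -0.45 on slide 2. It was above background in the Cy5 channel alone on each slide.

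TSR1 and UTP22 had the lowest ratios of the processome genes. TSR1, which acts in the last steps of the small subunit, had 500.7 and 594.7 units in BF2B, against 606.1 and 728.2 units in BF2, for a ratio of -0.28 ± 0.01. Its 6 spots lay between -0.37 and -0.14, all on the side of lower levels in BF2B. In each strain TSR1 was above background only in the Cy5 channel. UTP22, a gene of the UTP-C complex, had 1461 and 1759 units in BF2B, against 1797 and 1922 units in BF2, and its ratio of -0.21 ± 0.12 turned to 0.05 when the intensity correction was fitted block by block of the slide. NOP14, NOC4 and RRP12 lay between -0.06 and -0.04. ENP1, NSR1 and RRP5 lay between 0.03 and 0.10.

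Large subunit assembly held the highest gene. MAK16, which encodes a nucleolar protein of early large subunit particles, had 2258 and 2537 units in BF2B, against 1311 and 1507 units in BF2. BF2B was higher on each slide and the intensities of the strains did not overlap. The log2 ratio was 0.77 ± 0.02, or 1.70-fold, its 6 spots lay between 0.64 and 0.84, and 96.5% of all tested genes lay below it. It was the only one of the 47 genes to exceed 1.5-fold on both slides, 1 higher and 0 lower, where 4.16% of all tested genes were higher and 4.66% lower by that measure.

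MAK16 is also the only one of the 50 genes on chromosome I, and the genes of that chromosome as a whole stood high in BF2B. The median log2 ratio of its 69 tested genes was 0.49, or 1.41-fold, at 0.51 on slide 1 and 0.54 on slide 2. Of these genes 66 had a mean ratio above 0, and 27.5% exceeded 1.5-fold on both slides. DRS2, the neighbour of MAK16 that was above background, stood at 0.52 ± 0.07. With each slide's chromosome median taken off, MAK16 stood at 0.28 on slide 1 and 0.21 on slide 2. It lay within the spread of its chromosome, where 12 of the tested genes had a higher ratio. Chromosome VI stood apart the other way, with a median of -0.74 over 83 tested genes, of which 70 lay below 0, and it holds none of the 50 genes. The medians of the other 14 chromosomes lay between -0.08 and 0.04. A ratio cannot tell a shift in BF2B from one in BF2, and what moved these chromosomes was not tested.

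**Figure D2:**
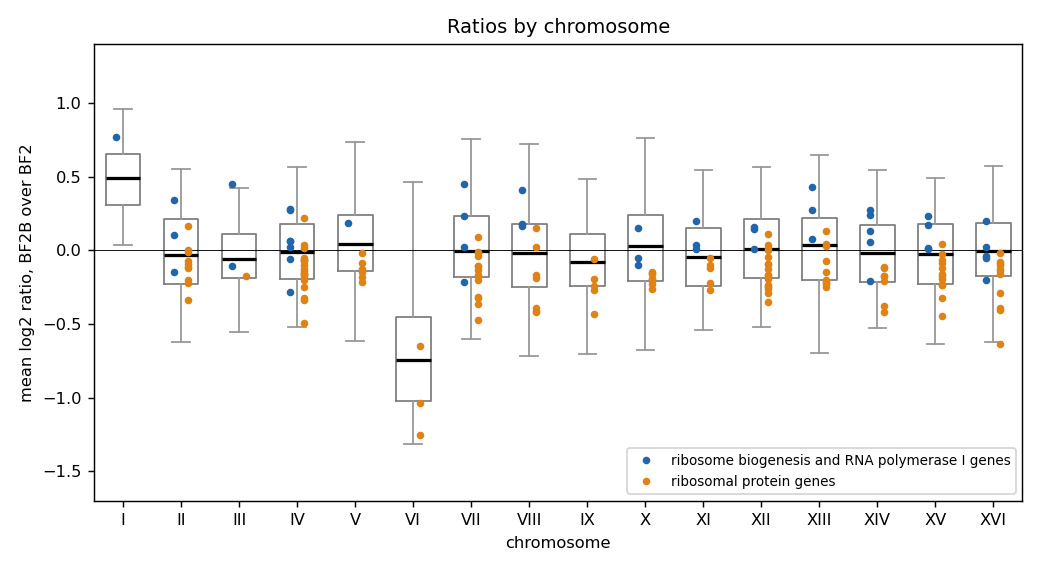
Mean log2 ratio of BF2B over BF2 (y axis) of all tested genes by chromosome (x axis). Boxes show the quartiles, whiskers the 5th and 95th percentiles, blue points the ribosome biogenesis and RNA polymerase I genes and orange points the ribosomal protein genes. Chromosome I lies high with MAK16 among its genes, and chromosome VI lies low with 3 ribosomal protein genes.

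The scaffold genes NOP7, ERB1 and YTM1, whose products form one complex, stood at different heights. NOP7 had 1808 and 2924 units in BF2B, against 1457 and 1937 units in BF2, and stood at 0.45 ± 0.20. ERB1 had 1090 and 1032 units in BF2B, against 639.1 and 971.1 units in BF2, with ratios of 0.77 on slide 1 and 0.09 on slide 2. YTM1 had 614.3 and 694.8 units in BF2B, against 542.7 and 620.1 units in BF2, at 0.17 ± 0.01. All 3 were above 0 on both slides, with the gap widest for ERB1. In BF2, ERB1 was above background on slide 2 only. YTM1 was above background in the Cy5 channel alone on each slide, so the other strain had a dim reading each time.

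Most helicase genes stood above 0 as well. DBP2, DBP3, DBP10 and DRS1, which encode RNA helicases of the DEAD-box family, stood at 0.28 ± 0.12, 0.23 ± 0.13, 0.28 ± 0.19 and 0.16 ± 0.11. DBP2 had 1545 and 1746 units in BF2B, against 1200 and 1532 units in BF2. DBP10 had 1387 and 1840 units in BF2B, against 1038 and 1661 units in BF2. For these 4 genes BF2B was the higher strain on each slide, which did not hold for the other helicases. HAS1 had 835.4 and 690.8 units in BF2B, against 538.3 and 736.5 units in BF2, or 0.63 on slide 1 and -0.09 on slide 2. MAK5 had 510.3 and 479.4 units in BF2B, against 498.6 and 601.0 units in BF2, or 0.03 and -0.33. HAS1 and MAK5 were above background in the Cy5 channel alone on each slide.

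The GTPase genes, whose products act as checkpoints of large subunit maturation, were divided. NUG1 stood at 0.18 ± 0.04. NOG1 had 586.2 and 600.0 units in BF2B, against 630.2 and 738.8 units in BF2, at -0.20 ± 0.14. NOG2 had 705.2 and 656.6 units in BF2B, against 754.0 and 822.3 units in BF2, at -0.21 ± 0.16. Both were lower in BF2B on each slide. NOG1 was above background in the Cy5 channel alone, and NOG2 in BF2B was above it on slide 1 only. Without background subtraction the NOG2 ratio was -0.04. NOP2, which encodes a methyltransferase of the large subunit RNA, stood at 0.24 ± 0.14, and NMD3, the export adapter of the large subunit, at 0.16 ± 0.32.

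The remaining large subunit genes lay near 0 or could not be read. NOP4, RPF2, NOC2 and EBP2 lay between 0.01 and 0.03. MAK21, whose product pairs with Noc2, had 425.3 and 864.1 units in BF2B, against 562.2 and 600.6 units in BF2. Its slides stood at -0.40 and 0.52, the widest gap among the 47 genes, and it was above background in the Cy5 channel alone. NOC3 and RPF1 were not tested, because BF2 was not above background on either slide and BF2B on slide 1 only. Over the 20 tested genes of the group the median was 0.17, with 10 above 0 on both slides and 2 below. With loess fitted block by block of the slide the median was 0.083.

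**Figure D3:**
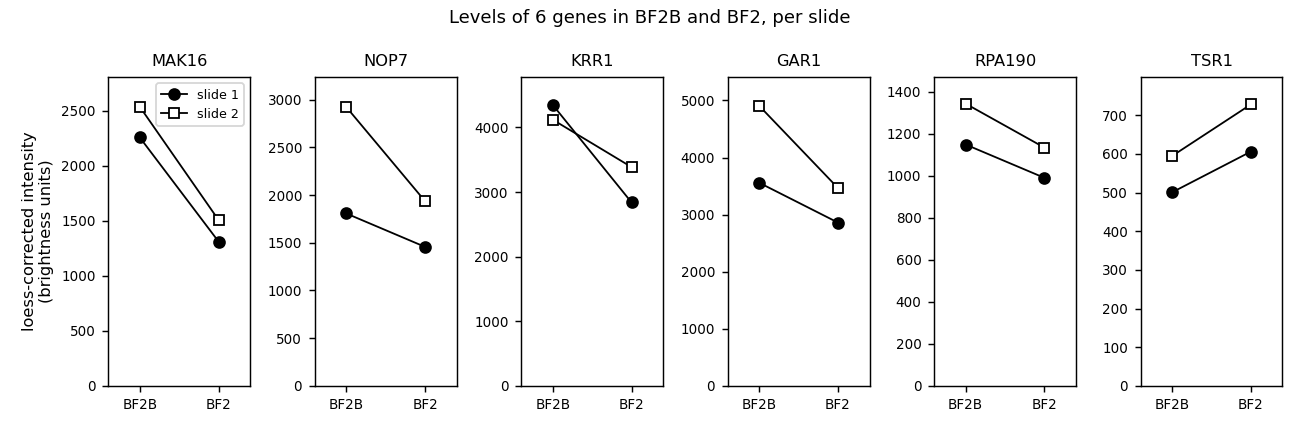
Loess-corrected intensity in brightness units (y axis, from 0) in BF2B and BF2 for 6 genes, with slide 1 as filled circles and slide 2 as open squares. MAK16, NOP7, KRR1, GAR1 and RPA190 are higher in BF2B on both slides and TSR1 is lower on both.

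Differences among the 47 genes were about as large as the spread between hybridisations. The median size of their mean log2 ratio was 0.16, and the median SD between slides was also 0.16. For all tested genes these values were 0.21 and 0.19, and for ribosomal protein genes 0.17 and 0.14. Across the 47 genes, which share 2 slides and are not independent replicates, the ratios of slide 1 and slide 2 correlated at a Pearson r of 0.09. Without MAK16 the value was -0.04, and across all 4660 tested genes it was 0.64. It was 0.35 over the 27 genes that were above background in both strains on both slides, MAK16 included. All 2529 tested genes of that kind gave 0.80. The other 20 of the 47 genes gave -0.19. Of those 20, 14 were above background in the Cy5 channel alone on each slide. Gene lists described below varied in this correlation. It was -0.27 for other small subunit factors, 0.19 for other large subunit factors and -0.015 for RNA polymerase I partners. Ribosomal protein genes gave 0.27 and the RNA polymerase III list -0.10. The core subunits of RNA polymerase II gave 0.69 over 7 genes, and the regulators gave 0.64 over 20. Within a slide the spots agreed more closely, with a median SD over 3 spots of 0.09 on each slide. All 6 spots lay above 0 for 14 genes and below 0 for 3 genes, TSR1, UTP22 and NOG2. The matching shares of all tested genes were not counted, so these counts show no lean of the 47 genes.

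**Figure D4:**
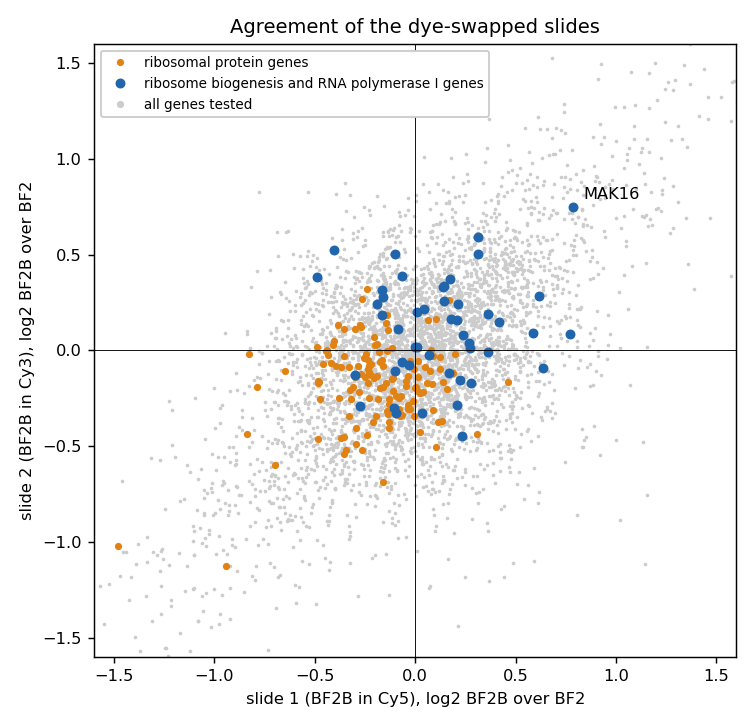
Log2 ratio of BF2B over BF2 on slide 1 (x axis) against slide 2 (y axis), with grey points for all tested genes within the plotted range, orange for ribosomal protein genes and blue for the 47 tested ribosome biogenesis and RNA polymerase I genes. The blue points form a round cloud apart from MAK16, with r = 0.09 over all 47 genes and -0.04 without MAK16.

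Ribosomal protein genes, whose products these factors assemble, lay on the other side of 0. All 81 large subunit genes were tested, and their median log2 ratio was -0.17, at -0.19 on slide 1 and -0.16 on slide 2. All 56 small subunit genes were tested, with a median of -0.16, at -0.17 and -0.14. Taken as 137 genes, 89 were below 0 on both slides and 5 above 0 on both. The assembly and polymerase I median thus exceeded the ribosomal protein median by 0.27 on the log2 scale. The same difference was 0.32 on slide 1 alone, 0.27 on slide 2 alone and 0.26 under median centring. Ribosomal protein probes were brighter, with a median log2 intensity of 12.7, against 10.3 for the 47 genes, and many are near-identical pairs of genes that a probe may not separate.

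The ribosomal protein genes lowest in BF2B were those on chromosome VI. RPL29 stood at -1.25 ± 0.33 and was the 1 called gene. RPL22B stood at -1.03 ± 0.13 and RPL2A at -0.65 ± 0.07. These are the ribosomal protein genes of chromosome VI, and they were also the 3 that exceeded 1.5-fold on both slides. Over the 134 genes on other chromosomes the median was -0.16, and 0 exceeded 1.5-fold in the lower direction on both slides, although the lowest mean among them, -0.64, was close to that of RPL2A. At the other end of the large subunit RPL4B, RPL4A and RPL10 stood at 0.22 ± 0.07, 0.16 ± 0.11 and 0.11 ± 0.07. In the small subunit RPS15, RPS9A and RPS3 stood lowest, at -0.45 ± 0.13, -0.39 ± 0.14 and -0.38 ± 0.38, and RPS20, RPS10B and RPS0A highest, at 0.15 ± 0.44, 0.13 ± 0.04 and 0.090 ± 0.15.

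**Figure D5:**
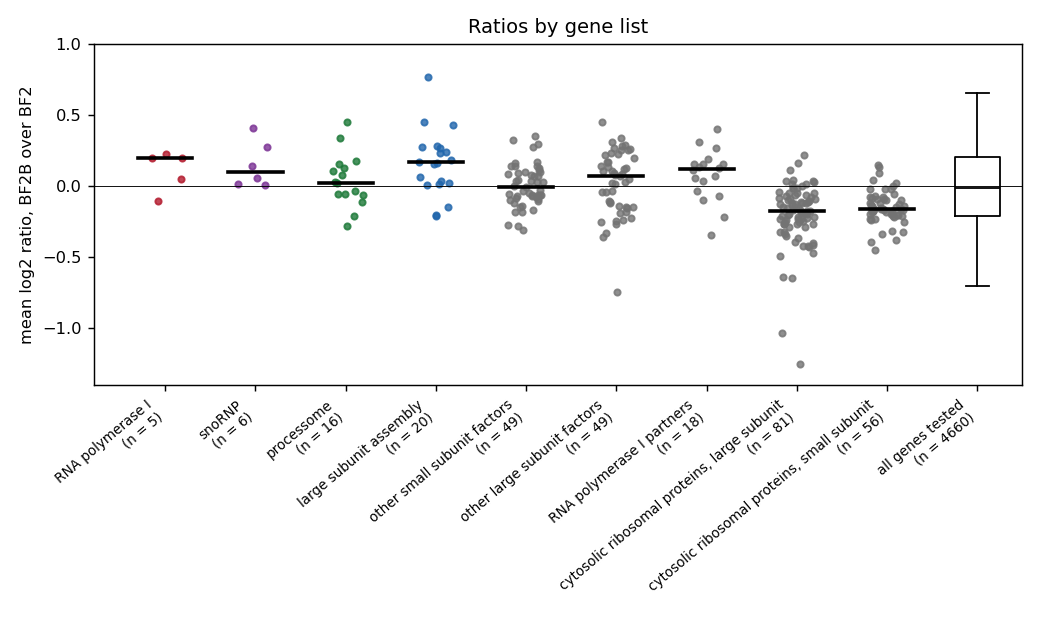
Mean log2 ratio of BF2B over BF2 (y axis) of the tested genes of each list (x axis), with the list median as a black bar. For all 4660 tested genes a box gives the quartiles and whiskers the 5th and 95th percentiles. The ribosomal protein medians, -0.17 and -0.16, lie below those of every assembly list.

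Further genes of the pathway, from lists wider than the 50, were close to 0. Of 58 other small subunit factors 49 were tested and 0 were called, with a median of -0.01, at 0.083 on slide 1 and -0.047 on slide 2. BMS1, a GTPase of the processome, stood at 0.35 ± 0.07, UTP21 at 0.33 ± 0.28 and UTP14 at 0.30 ± 0.04. At the low end UTP9 stood at -0.28 ± 0.63, DIP2 at -0.28 ± 0.01 and CMS1 at -0.31 ± 0.11. Of 60 other large subunit factors 49 were tested and 0 were called, with a median of 0.07, at 0.083 on slide 1 and -0.0064 on slide 2. REA1, the giant ATPase that strips factors from large subunit particles, stood at 0.45 ± 0.06, URB1 at 0.34 ± 0.36 and JIP5 at 0.31 ± 0.15. The helicase gene SPB4 stood at -0.74 ± 0.17 and was the only gene of these lists past 1.5-fold on both slides, and LOC1 stood at -0.33 ± 0.21. Both lie on chromosome VI, whereas RIA1, a GTPase gene at -0.36 ± 0.02, lies on chromosome XIV.

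RNA polymerase I partners, the shared subunits and promoter factors, had a median of 0.12 over 18 tested genes of 21, with 0 called, and 0.053 on slide 2 alone. RRN5, a subunit of the upstream activating factor, stood at 0.40 ± 0.38, RPC40, a subunit shared with RNA polymerase III, at 0.31 ± 0.31 and REB1 at 0.27 ± 0.07. HMO1, which binds ribosomal DNA and many ribosomal protein promoters, stood at -0.35 ± 0.08, RPB5 at -0.21 ± 0.16 and NET1 at -0.098 ± 0.28. The core subunits of RNA polymerase II had a median of -0.08 over 7 genes, with RPB11 at 0.48 ± 0.01, RPB2 at 0.30 ± 0.19 and RPO21 at 0.041 ± 0.16, and with RPB4 at -0.15 ± 0.04, RPB9 at -0.14 ± 0.10 and RPB7 at -0.13 ± 0.24. Those of RNA polymerase III, listed with BRF1, BDP1 and the repressor gene MAF1, had a median of 0.15 over 8 tested genes of 13. That median changed sides between slides, at -0.055 on slide 1 and 0.29 on slide 2. At the high end RPO31 stood at 0.33 ± 0.04, RPC17 at 0.24 ± 0.54 and BDP1 at 0.22 ± 0.31. At the low end were MAF1 at -0.16 ± 0.27, RPC53 at -0.12 ± 0.52 and RPC37 at 0.030 ± 0.25.

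Regulators of these genes gave a wider range around a median of 0.00 over 20 genes, with 0 called. IFH1, the coactivator of ribosomal protein genes, stood at 0.95 on slide 1 and 0.85 on slide 2, a log2 ratio of 0.90 ± 0.07. DOT6, a repressor of ribosome biogenesis genes, stood at -0.95 and -0.56, a log2 ratio of -0.76 ± 0.28. Neither is on chromosome I or VI. CKA2, a catalytic subunit of casein kinase 2, stood at -0.42 ± 0.01, and RAP1, which binds ribosomal protein promoters, at 0.46 ± 0.40. LST8, a component of the TOR kinase complexes, stood at 0.41 ± 0.56. The nutrient kinase gene RIM15, at -0.96 ± 0.51, lies on chromosome VI. SFP1, FHL1 and SCH9, activators of ribosome production, stood at 0.02 ± 0.13, 0.27 ± 0.07 and 0.24 ± 0.22.

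The slides of the strain labelled BF2S gave no firm reading of these genes. Blank spots in the BF2S channel had medians of 6049 and 5325 units on the 2 slides. The 50 genes had median signals of 1378 and 741.3 units there, and 2 and 1 of the 50 were above the blank median, with none above it on both slides. In the BF2 channel of the same slides 24 of the 50 were above the blank median on both. By the rule used above, 46 of the 50 were tested, 3 were called higher and 11 lower, where 19.3% of all tested genes were called higher and 25.1% lower. Both comparisons use BF2 RNA. MAK16 stood at 0.79 ± 0.17 in BF2S over BF2, with BF2S signals of 4315 and 3130 units, below the blank medians.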

How the data were processed

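Messenger RNA was measured on 4 slides with 2 colours. Per the labels, total RNA was amplified by the Eberwine method and labelled with Cy5 or Cy3. Per the file headers, each deposited scanner file gives spot intensity and local background at 635 and 532 nm. The deposited value table holds log2 ratios of strain over BF2. It correlated with the first spot of each probe at 0.9997 or more and was not centred. The sources used here name neither the scanner software nor the labelled strand, so antisense transcripts were not separated.

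Spot medians were corrected by normexp (offset 50) and by loess fitted to gene spots, in limma 3.58.1 under R 4.3.3. The 3 spots were averaged and turned to strain over BF2 by the labelled dyes. Above background means that 2 or 3 of the 3 spots in a channel exceeded the local background mean by 2 SD. Of 6388 probes, 5849 matched a locus tag in RefSeq's R64 gene table, used for names, chromosomes and neighbours. Tables and figures used matplotlib 3.10.9, pandas 2.3.3 and numpy 2.4.6 under Python 3.11.15. Spots marked -100, 54.6% of gene spots on slide 1 and 0% on slide 2, were kept. Promoter motifs were not analysed here. The number of slides and the signal over background limit precision.

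Ribosomal protein genes were taken by symbol, and RPP1, an RNase P and MRP subunit with a matching symbol, was left out. The genes and lists were chosen with earlier results of these data known. Values were given for the 10 highest and 6 lowest tested genes, the RNA polymerase I genes, the widest gap between slides, the 3 farthest genes of other lists in each direction and, chosen after their values were seen, the others named. Chromosomes I and VI were also singled out after their values were seen.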

Additional observations from a re-analysis of the deposited data

Results flagged for a closer look

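The medians of 4 lists lay on opposite sides of 0 in the 2 comparisons with BF2, on every slide. The differences were not tested, the comparisons share BF2, and the BF2S signals lay mostly below the blank spots. Over all the genes described, the median log2 ratio was -0.28 in BF2S over BF2 (46 tested), against 0.10 in BF2B over BF2 (47 tested). The processome medians were -0.56 (BF2S over BF2) and 0.02 (BF2B over BF2). The small nucleolar ribonucleoprotein medians were -1.32 (BF2S over BF2) and 0.10 (BF2B over BF2). The large subunit assembly medians were -0.15 (BF2S over BF2) and 0.17 (BF2B over BF2). No group held enough slides to look for a slide far from the others.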

How the results depend on the processing

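No paired analysis was possible because no result comes from a test. Medians of 10 lists, the difference from the ribosomal proteins and the count of calls were recomputed under 14 alternatives each, 2 of them chosen after seeing the data (leaving out chromosomes I and VI, and subtracting the chromosome median), with 3 more for the count. In all, 153 values moved by less than the pooled SD of slide medians, 0.047 (for the difference, the square root of 2 times that), or kept the count, and 18 moved by more. Some of the 153 could not move, because an alternative left the genes of a list as they were. The median of all genes described stayed above 0, between 0.073 and 0.16. The difference from the ribosomal proteins stayed between 0.21 and 0.35. The count of calls was 0 except for 1 at 1.5-fold. With block-wise loess the large subunit assembly median was 0.083 and that of the small subunit ribosomal proteins -0.11. In the deposited value table the difference was 0.35, with -0.24 for large subunit ribosomal proteins, 0.020 for other large subunit factors and 0.18 for RNA polymerase I partners. With spots marked -100 left out the median of all genes described was 0.16 (31 genes) and of the processome 0.14 (9 genes). With both channels above background these were 0.15 (27 genes) and 0.075 (7 genes), and the partners stood at 0.067. Without the filter on dim genes RNA polymerase I stood at 0.13. On single slides the medians were 0.092 to 0.15 for small nucleolar ribonucleoproteins, 0.14 to 0.24 for RNA polymerase I, 0.016 to 0.026 for the processome, 0.15 to 0.17 for large subunit assembly, 0.11 to 0.14 for all genes described, -0.047 to 0.083 for other small subunit factors, -0.0064 to 0.083 for other large subunit factors and 0.053 to 0.10 for the partners. The cause of these shifts was not tested. MAK16 stood between 0.68 and 0.86 under 12 alternatives and at 0.24 with the chromosome median subtracted. Some of the 12 only changed which genes entered a list, so the value of a single gene could not move. The chromosome I median stood between 0.44 and 0.68 and that of chromosome VI between -0.95 and -0.62 under 12 alternatives.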
